A study of Homo sapiens with 6 samples.

Results

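The genes described here are 42 heat shock chaperones of the cytosol and the mitochondria with their co-chaperones and heat shock factors, chosen by symbol from the 20325 genes of the deposited count table. The members belong to 9 roles, and all 42 symbols had a row. RNA was measured by bulk sequencing in SNU-668 cells, a gastric cancer line of human origin, in a form that the labels describe as resistant to erastin, a small molecule that blocks cystine import and induces ferroptosis. The knockdown consisted of 3 libraries of cells transfected with an shRNA against ALKBH3 (genotype label ALKBH3 knockdown), and the controls were 3 libraries of the same resistant cells with a control shRNA (genotype label WT). The titles of all 6 libraries begin with RLS3, a term left undefined in the labels. ALKBH3 repairs alkylated nucleic acids by oxidising methyl groups away. Parental cells that are not resistant were not analysed here, and the labels give neither the number of shRNA sequences nor whether the cells were clones, pools or separate cultures, so the spread behind each p-value may be technical. In bulk RNA, fewer cells that express a gene and less of its RNA per cell cannot be told apart.

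Chaperones bind unfolded or aggregation-prone proteins. HSP70 proteins bind and release short stretches of a client in a cycle driven by ATP, in which J-domain proteins (the DNAJ genes) deliver the client and speed hydrolysis and exchange factors (HSP110 and BAG proteins) release the nucleotide. HSP90 receives clients such as kinases and steroid receptors from HSP70 through the adaptor STIP1, small heat shock proteins hold unfolded proteins without ATP, and HSPD1 with its lid HSPE1 forms the folding chamber of the mitochondrial matrix. When unfolded proteins accumulate, the transcription factor HSF1 forms trimers, binds repeats of the motif nGAAn and raises the transcription of the inducible members.

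Library totals ran from 14890452 to 17880183 counts in the knockdown and from 14244932 to 15470321 in the controls. ALKBH3 had 95, 106 and 68 reads in the knockdown libraries and 326, 351 and 334 in the control libraries, with a log2 fold change of -2.11 (edgeR adjusted p = 1.01e-10), and its level in the knockdown was 23.0% of that in the controls. Of 12 markers of gastric epithelium, 4 had no reads in any library, among them the epithelial cadherin CDH1, and the list summed to 212 to 224 CPM in the knockdown and 156 to 177 CPM in the controls. EPCAM had 27 reads in the knockdown and 27 in the controls, while the epithelial keratin KRT18 was at 193 ± 6.28 CPM in the knockdown and 149 ± 10.5 CPM in the controls (SD, n = 3 each). CPM here is the gene's count scaled by the TMM-adjusted library size. Of 16 markers of other cell types, 15 had a row and 4 of those no reads. The T cell marker CD3E, the haemoglobin chain HBB and the neuronal ELAVL4 were among those at 0. The leukocyte marker PTPRC had 97 reads in the knockdown and 36 in the controls, and the endothelial VWF had 111 and 79. The list's summed level was 213 to 236 CPM in the knockdown and 214 to 257 CPM in the controls, most of it from PDGFRB and COL1A1. No reads means at most 3 counts per library, or 0.168 to 0.201 CPM in the knockdown and 0.194 to 0.211 CPM in the controls, a limit that covers counting error only.

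In the knockdown, 11 of the 40 chaperone genes tested were lower and 2 were higher, called at an adjusted p under 0.05 in edgeR's quasi-likelihood fit. The lower genes were HSPB1, HSP90AA1, DNAJB1, HSPE1, PTGES3, DNAJB5, HSPA6, BAG3, STIP1, FKBP4 and HSPH1, and the higher genes were the mitochondrial HSP70 HSPA9 and the weakly expressed small heat shock protein HSPB6. Over all 12305 genes tested, 8.08% were called, 4.12% lower and 3.96% higher. With library totals as the only scaling, 417 genes of the table were lower and 610 higher, against 507 and 487 here, and the chaperone calls still numbered 11 lower and 2 higher. The falls were moderate, from -0.28 for FKBP4 to -1.15 for HSPA6 on the log2 scale. The median log2 fold change was -0.16 over the 40 members and 0.01 over all genes tested. The 2 members that were not tested are HSPA2, a testis-enriched HSP70, with 10 reads in all, and the J-domain gene DNAJA4, with 0.

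**Figure D1:**
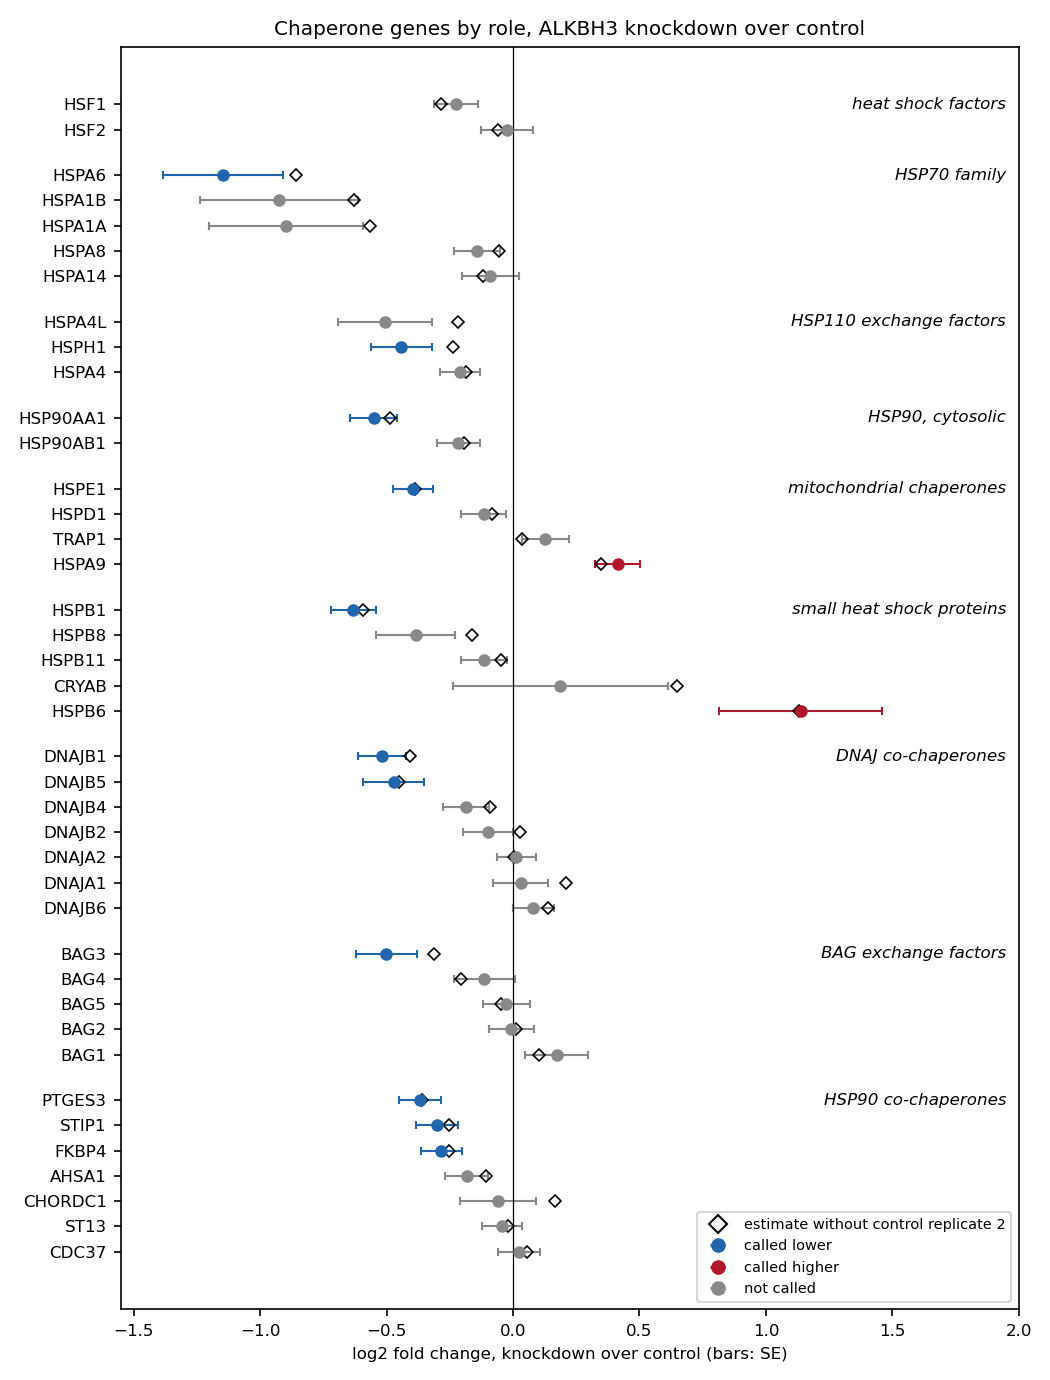
Log2 fold change of knockdown over control for the 40 tested chaperone genes, grouped by role, with bars for the SE of the fit on 3 libraries per group; open diamonds give the estimate without control replicate 2. The 11 members called lower lie between -1.15 and -0.28, HSPA9 and HSPB6 lie on the other side at 0.41 and 1.14, and the diamonds of HSPA6, HSPA1A, HSPA1B, HSPA4L and HSPH1 lie nearer to 0 than their points.

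The 42 members together took 1.91%, 1.88% and 1.88% of all counts in the knockdown libraries and 2.19%, 2.52% and 2.16% in the control libraries. The knockdown libraries lay close together and below every control, and control replicate 2 was the highest. Abundant genes weigh most in this share. HSP90AA1 alone gave 72480 of the members' 340777 reads in knockdown replicate 1 and 79998 of 312437 in control replicate 1. The levels of the groups did not overlap, with the knockdown lower, in 17 of the 40 tested members, where the same held for 13.3% of all genes tested. These 17 are the 11 called lower and 6 that did not pass the test, HSPA1A, HSPA1B, HSPA8, HSPA4, HSPA4L and HSP90AB1. In the other direction the groups did not overlap in HSPA9 and HSPB6 (13.3% of all genes tested).

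Neither heat shock factor passed the test. HSF1, the master regulator of the heat shock response on chromosome 8, was at 69.2, 61.7 and 58.7 CPM in the knockdown libraries and at 77.0, 67.7 and 77.3 CPM in the control libraries. The groups overlapped, and control replicate 2 was here the lowest control. The log2 fold change was -0.23, SE 0.0875 (edgeR adjusted p = 0.116), and it passed only without control replicate 2 and knockdown replicate 1 together (-0.36, adjusted p = 0.0275). HSF2, a factor active in development and in proteasome shortage, was at 25.4, 24.2 and 25.1 CPM in the knockdown libraries and at 26.5, 24.1 and 25.3 CPM in the controls, a log2 fold change of -0.02 (edgeR adjusted p = 0.932). HSF1 is switched on by trimerisation and phosphorylation of its protein, which RNA levels do not measure.

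Among the HSP70 genes the stress-inducible copies had the lowest fold changes, but only HSPA6 passed. HSPA6, a strictly inducible HSP70 on chromosome 1 (161494036 to 161496681, plus strand, hg19), had 11.01, 16.4 and 16.5 CPM in the knockdown libraries and 24.01, 43.9 and 28.8 CPM in the control libraries. It fell to 0.452 of the control level, at a log2 fold change of -1.15, SE 0.236 (edgeR adjusted p = 0.0195). All knockdown libraries lay below all controls, with control replicate 2 the highest. The call was lost without control replicate 3 (adjusted p = 0.0827) and without knockdown replicate 1 (0.0579), 2 (0.0539) or 3 (0.0585). Without control replicate 2 the log2 fold change was -0.86 (adjusted p = 0.000729).

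HSPA1A and HSPA1B encode the main inducible HSP70 from neighbouring genes on chromosome 6 (31783291 to 31785723 and 31795512 to 31798031, both plus strand, hg19). HSPA1A was at 293, 360 and 328 CPM in the knockdown libraries and at 409, 863 and 559 CPM in the control libraries. HSPA1B was at 339, 508 and 455 CPM in the knockdown libraries and at 569, 1130 and 774 CPM in the controls. In both genes every knockdown library lay below every control, and control replicate 2 was well above the others. With log2 fold changes of -0.90 (SE 0.305) and -0.93 (SE 0.312) they did not pass (edgeR adjusted p = 0.183 and 0.182), while limma-voom called both (adjusted p = 0.00151 and 0.00111), as did edgeR without robust dispersion (0.000721 and 0.000682). DESeq2 did not (adjusted p = 0.0645 and 0.0592). Without control replicate 2 the values were -0.57 (edgeR adjusted p = 0.00479) and -0.63 (0.109), and without control replicate 1 they were -1.12 (0.000492) and -1.13 (0.0154), so each gene's call turned on single control libraries. Without control replicate 2 and knockdown replicate 1 together, both passed narrowly (-0.49 with 0.0452 and -0.48 with 0.0494).

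Reads of these copies cannot all be told apart. Of the 150-base windows of the longest coding HSPA1A transcript in GENCODE 29, 67.1% occur letter for letter in transcripts of another gene, as do 70.0% of those of HSPA1B and 15.2% of those of HSPA6, the last in HSPA7. How the authors' counting treated such reads is not given in the sources used here. The sum of HSPA1A and HSPA1B does not depend on how reads were divided between them: it was 632, 868 and 783 CPM in the knockdown libraries and 978, 1993 and 1333 CPM in the control libraries. The ratio of HSPA1A to HSPA1B was 0.865, 0.710 and 0.720 in the knockdown libraries and 0.718, 0.764 and 0.723 in the controls, overlapping values (exact two-sided permutation test over libraries, p = 0.9).

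HSPA8, the constitutive HSP70, was far more abundant and differed less. Its libraries were at 2983, 3090 and 3108 CPM in the knockdown and at 3192, 3781 and 3165 CPM in the controls, a log2 fold change of -0.14 (edgeR adjusted p = 0.387). The knockdown values lay just below the controls, and without control replicate 2 the log2 fold change was -0.06 (0.785). HSPA14, which sits with the ribosome, was at 25.9 ± 2.58 CPM in the knockdown and 27.6 ± 3.22 CPM in the controls (SD, n = 3 each; edgeR adjusted p = 0.696). The ratio of HSPA1B to HSPA8, chosen after their values were seen, was 0.114, 0.164 and 0.146 in the knockdown libraries and 0.178, 0.299 and 0.244 in the control libraries. These ratios did not overlap, with p = 0.1 in an exact two-sided permutation test, the smallest p that 3 against 3 libraries allow (0.133 when adjusted over the 4 ratios tested).

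**Figure D2:**
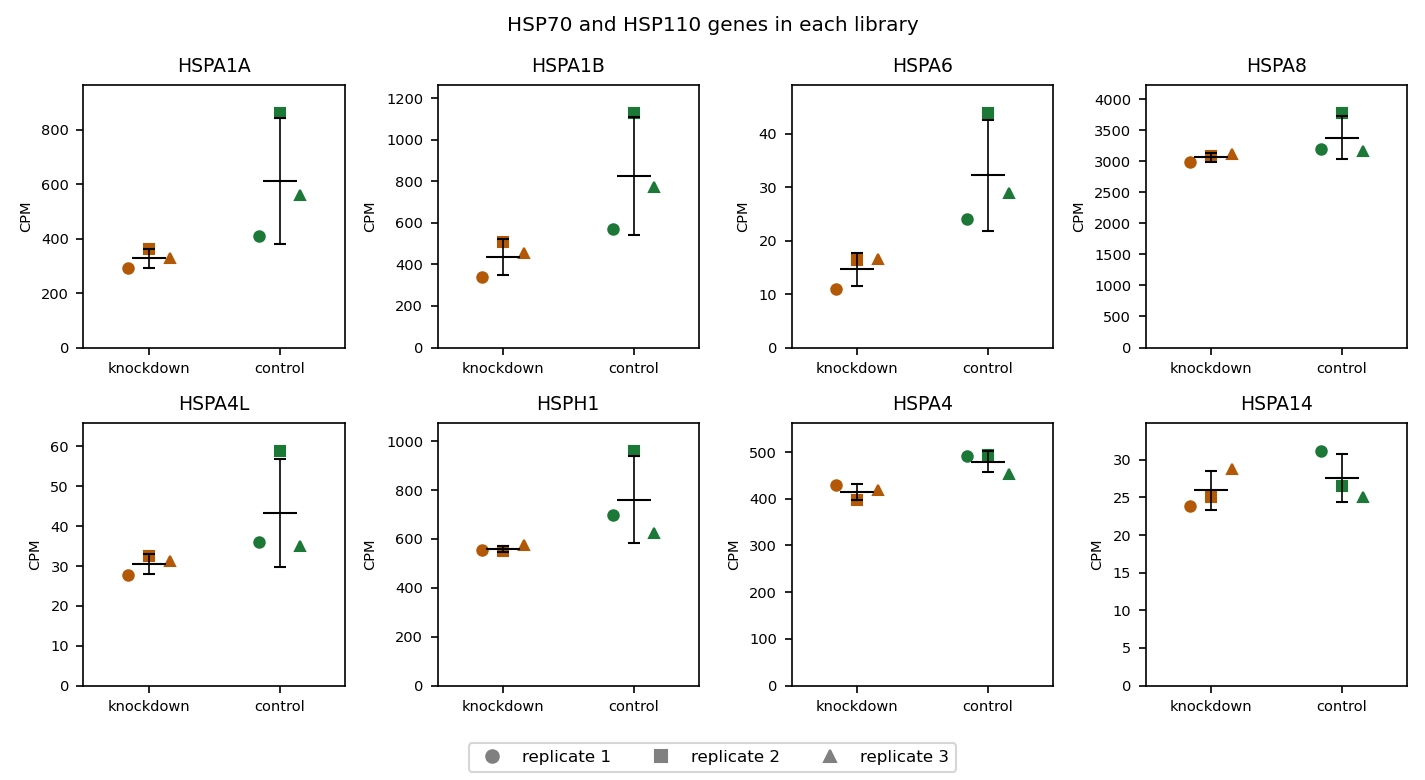
Level in CPM of 5 HSP70 and 3 HSP110 genes in each library, knockdown left and control right of each panel, with symbols for replicates 1 to 3 and bars for the mean and SD (n = 3). The squares of control replicate 2 stand highest for HSPA1A (863 CPM), HSPA1B (1130 CPM), HSPA6, HSPA4L and HSPH1, while HSPA14 overlaps between the groups.

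Of the 3 HSP110 exchange factors, which reset HSP70, HSPH1 passed the test and all 3 had groups that did not overlap. HSPH1, the heat-inducible HSP110, was at 556, 550 and 575 CPM in the knockdown libraries and at 696, 961 and 626 CPM in the control libraries, and it fell by 0.44 on the log2 scale (SE 0.121, edgeR adjusted p = 0.0325). Knockdown values were tight and below all controls, but the margin to control replicate 3 was small. The call was lost without control replicate 2 (log2 fold change -0.24, adjusted p = 0.102), without knockdown replicate 1 (0.191), 2 (0.0960) or 3 (0.0799), and with DESeq2 (0.151). Its relative HSPA4L was at 27.7, 32.6 and 31.3 CPM in the knockdown libraries and at 35.9, 58.9 and 35.0 CPM in the controls, without overlap and without a call (log2 fold change -0.51, edgeR adjusted p = 0.141; -0.22 with 0.252 without control replicate 2). It was called without control replicate 1 (-0.62, edgeR adjusted p = 0.0422), with limma-voom (0.0491), without robust dispersion (0.0305) and with no filter on low counts (8.08e-05). HSPA4, the constitutive HSP110, was at 430, 396 and 418 CPM in the knockdown libraries and at 492, 494 and 453 CPM in the controls, likewise without overlap or call (log2 fold change -0.21, edgeR adjusted p = 0.109; DESeq2 adjusted p = 0.0465).

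Of 5 BAG genes, BAG3 fell and the other 4 did not pass. BAG3, the inducible member that links HSP70 to small heat shock proteins and to selective autophagy, was at 136, 147 and 137 CPM in the knockdown libraries and at 160, 246 and 188 CPM in the control libraries. All knockdown values were below all controls. The log2 fold change was -0.50, SE 0.122 (edgeR adjusted p = 0.0216). It was not called without control replicate 3 (adjusted p = 0.0805) or knockdown replicate 1 (0.149) or 3 (0.0841), and was -0.31 without control replicate 2 (0.0297). BAG1, BAG2, BAG4 and BAG5, the remaining exchange factors of this family, had log2 fold changes from -0.11 for BAG4 to 0.17 for BAG1 (edgeR adjusted p = 0.634 and 0.452), with overlapping groups. For BAG2, 41.4% of the 150-base windows of the transcript also occur in RAB23, on the opposite strand, when either strand is allowed. Its value is uncertain because the sources used here do not say whether counting used the strand.

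Both cytosolic HSP90 genes had lower levels in every knockdown library than in any control, and HSP90AA1 passed the test. HSP90AA1, the inducible form (chromosome 14, 102547075 to 102606036, minus strand, hg19), was at 4031, 3701 and 3748 CPM in the knockdown libraries and at 5633, 6098 and 5099 CPM in the control libraries. It was the member with the most reads, and its knockdown values lay far below every control. The log2 fold change was -0.55, SE 0.0936 (edgeR adjusted p = 0.000323), and the gene was called in each of the 6 fits that left out 1 library, with log2 fold changes between -0.62 and -0.49. HSP90AB1, the constitutive form, was at 2926, 2803 and 2771 CPM in the knockdown libraries and at 3320, 3380 and 3169.5 CPM in the controls. The groups did not overlap, but the log2 fold change of -0.22 did not pass (edgeR adjusted p = 0.132; DESeq2 adjusted p = 0.0183).

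On a scale of CPM per kilobase of exon sequence in GENCODE 29, HSP90AB1 and HSP90AA1 had the highest levels of all members in either group. In the knockdown they stood at 951 ± 27.5 and 729 ± 34.0, and in the controls at 1104 ± 36.4 and 1069 ± 95.3 (SD, n = 3 each). This scale divides by all exon bases of a gene, 5248 for HSP90AA1, 2980 for HSP90AB1 and 4849 for HSPA8. Their longest coding transcripts have 3510, 2674 and 2463 bases. The order of these 3 genes, and the distance between the 2 HSP90 forms within a group, therefore depends on the length used. The ratio of HSP90AA1 to HSP90AB1 in CPM was 1.38, 1.32 and 1.35 in the knockdown libraries and 1.70, 1.80 and 1.61 in the control libraries, without overlap (exact two-sided permutation test, p = 0.1, the smallest possible, or 0.133 adjusted over the 4 ratios). HSPA8 came next per kilobase of exon sequence, at 631 ± 13.9 in the knockdown and 697 ± 71.8 in the controls.

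Of 7 HSP90 co-chaperones, 3 fell. PTGES3, the p23 protein that stabilises the closed HSP90 dimer, was at 549, 605 and 634 CPM in the knockdown libraries and at 780, 777 and 750.0 CPM in the control libraries. Its controls were close together, control replicate 2 did not stand out, and the log2 fold change of -0.37 (SE 0.0828, edgeR adjusted p = 0.00555) passed in each of the 6 fits that left out 1 library. STIP1, the adaptor between HSP70 and HSP90, was at 545, 594 and 553 CPM in the knockdown libraries and at 651, 739 and 693 CPM in the controls (log2 fold change -0.30, edgeR adjusted p = 0.0238). FKBP4, an immunophilin of steroid receptor complexes, was at 350.5, 341 and 338 CPM in the knockdown libraries and at 379, 435 and 440.4 CPM in the controls (log2 fold change -0.28, edgeR adjusted p = 0.0291). The groups did not overlap in either gene, but the calls depended on single libraries. That of STIP1 was lost without control replicate 2 (adjusted p = 0.0809) or knockdown replicate 1 (0.0584), 2 (0.0564) or 3 (0.116), and that of FKBP4 without control replicate 2 (0.0799), control replicate 3 (0.0926) or knockdown replicate 2 (0.129) or 3 (0.123).

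The other 4 co-chaperones did not pass. AHSA1, which stimulates the HSP90 ATPase, was at 179 ± 7.89 CPM in the knockdown and 203 ± 22.0 CPM in the controls (SD, n = 3 each; edgeR adjusted p = 0.191). CHORDC1 was at 200.1, 217 and 230.4 CPM in the knockdown libraries and at 186, 291 and 199 CPM in the control libraries. Its control replicate 2 lay above every other library, while both remaining controls lay below all knockdown libraries, so that its log2 fold change was -0.06 with all libraries and 0.17 without control replicate 2 (edgeR adjusted p = 0.866 and 0.278). The kinase adaptor CDC37 and the HSP70-binding ST13 had log2 fold changes of 0.02 and -0.05 (edgeR adjusted p = 0.908 and 0.794).

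Of the 7 tested J-domain genes, DNAJB1 and DNAJB5 fell. DNAJB1, the inducible HSP40 that works with HSP70 to dissolve aggregates and also represses HSF1, was at 466, 535 and 525 CPM in the knockdown libraries and at 627, 839 and 721 CPM in the control libraries. No library of the groups overlapped. Its log2 fold change was -0.52, SE 0.0959 (edgeR adjusted p = 0.000906), and between -0.62 and -0.41 with a call in each of the 6 fits that left out 1 library. DNAJB5, a relative of DNAJB1, was at 18.0, 19.6 and 20.9 CPM in the knockdown libraries and at 22.1, 27.9 and 31.1 CPM in the controls (log2 fold change -0.47, edgeR adjusted p = 0.0154). Here control replicate 1 was the lowest control and close to knockdown replicate 3. The call was lost without control replicate 3 (adjusted p = 0.0926) or knockdown replicate 1 (0.0651). DNAJA1, an abundant partner of HSC70 and heat-inducible, was at 556, 526 and 518 CPM in the knockdown libraries and at 445, 646 and 475 CPM in the control libraries. Control replicate 2 was above and the other controls below all knockdown libraries, and the log2 fold change was 0.03 (edgeR adjusted p = 0.912), or 0.21 without control replicate 2 (0.154). DNAJA2, DNAJB2, DNAJB4 and DNAJB6 had log2 fold changes from -0.19 for DNAJB4 to 0.08 for DNAJB6 (edgeR adjusted p = 0.221 and 0.616).

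The small heat shock proteins went in opposite directions. HSPB1, the most abundant of them per kilobase and a chaperone that also guards actin filaments (chromosome 7, 75931861 to 75933612, plus strand, hg19), was at 404, 397 and 367 CPM in the knockdown libraries and at 521, 634 and 655 CPM in the control libraries. It had the smallest adjusted p of all members: the log2 fold change was -0.63, SE 0.0895 (edgeR adjusted p = 3.45e-05), and between -0.73 and -0.57 with a call in each of the 6 fits that left out 1 library. Control replicate 3 and not control replicate 2 was the highest here. HSPB6, a small heat shock protein of muscle, had 40, 34 and 30 reads in the knockdown libraries and 12, 14 and 15 in the control libraries, or 2.04 ± 0.160 CPM in the knockdown and 0.925 ± 0.0855 CPM in the controls. The groups were well apart at this low depth, and the log2 fold change was 1.14, SE 0.323 (edgeR adjusted p = 0.0282). The call was lost without any 1 library, at adjusted p from 0.0606 without control replicate 3 to 0.106 without knockdown replicate 1, and with DESeq2 (0.0510). In GENCODE 29, 27.6% of the 150-base windows of HSPB6 also occur in transcripts of another annotated gene.

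HSPB8, the partner of BAG3, was at 14.4, 12.6 and 15.7 CPM in the knockdown libraries and at 14.0, 23.9 and 17.7 CPM in the control libraries, overlapping and not called (log2 fold change -0.39, edgeR adjusted p = 0.141; -0.16 with 0.567 without control replicate 2). It was called without control replicate 1 (-0.55, edgeR adjusted p = 0.0213) and with no filter on low counts (0.0401). CRYAB, an alpha-crystallin, had only 83 reads in all libraries and its log2 fold change was 0.19, SE 0.426 (edgeR adjusted p = 0.849). HSPB11 is a ciliary transport protein that carries the family name, and its log2 fold change was -0.12 (edgeR adjusted p = 0.487).

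**Figure D3:**
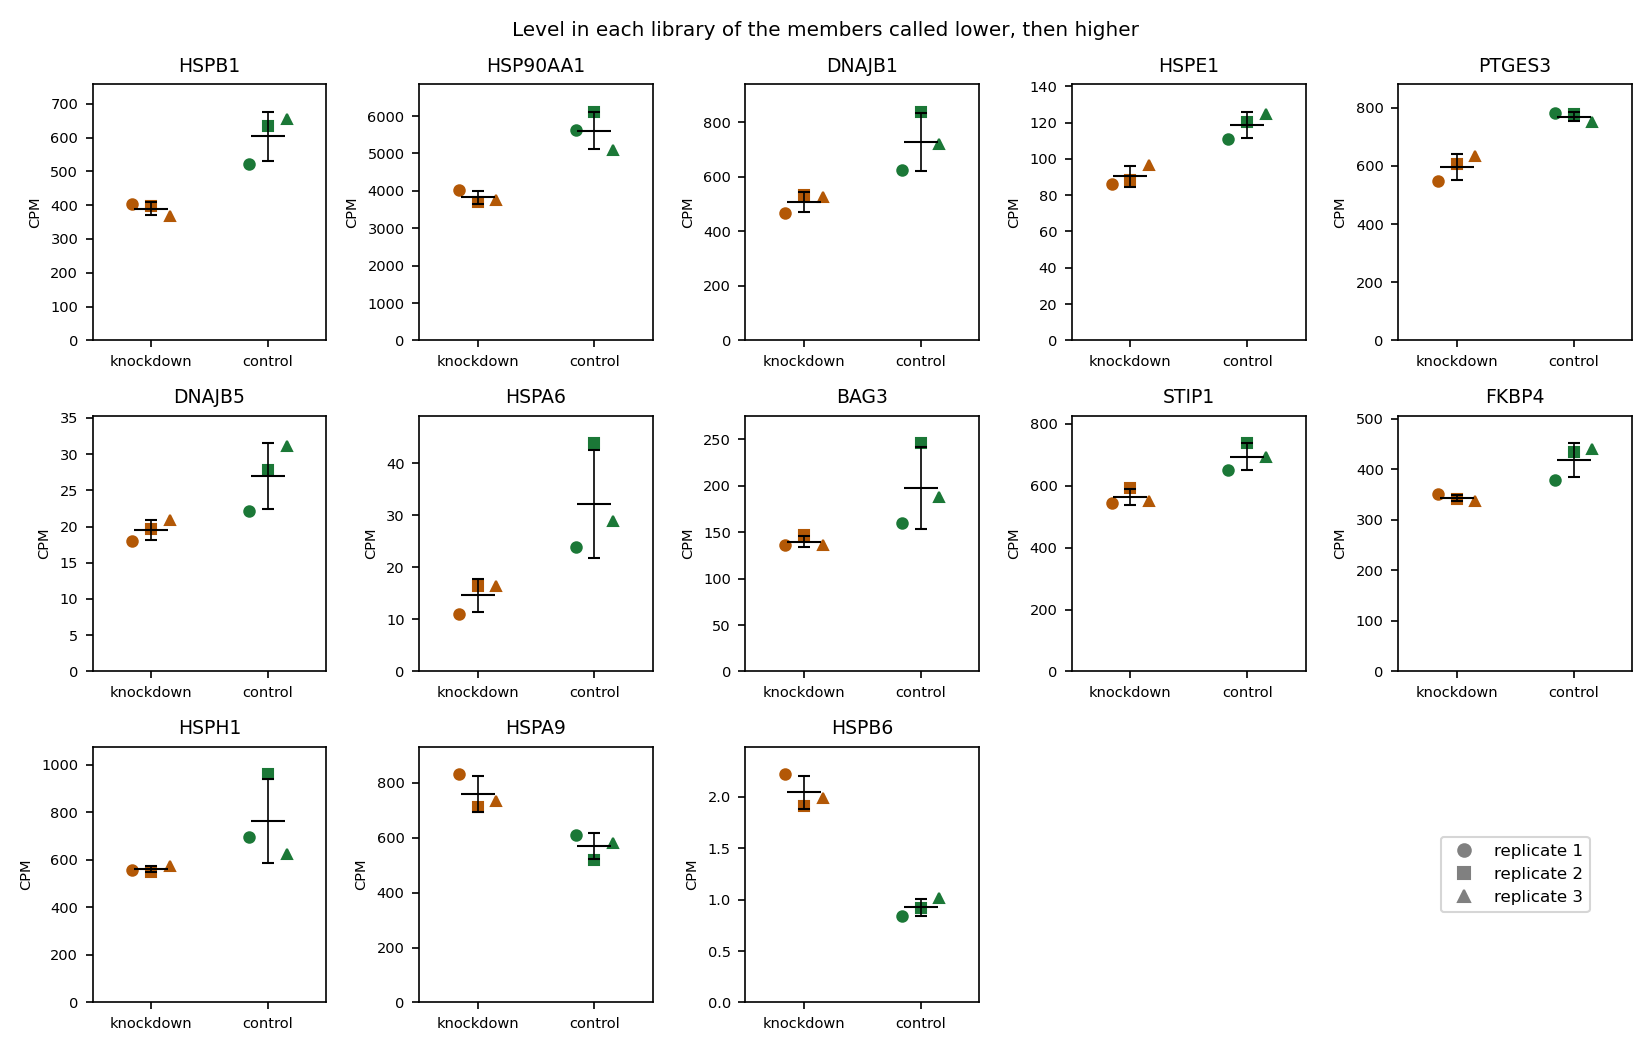
Level in CPM of the 13 called members in each library, in order of adjusted p, first the 11 called lower and then HSPA9 and HSPB6; symbols mark replicates 1 to 3, and bars show the mean and SD (n = 3). In every panel the knockdown and control points do not overlap, and the square of control replicate 2 is the highest control for HSPA6, HSPH1, BAG3, DNAJB1, HSP90AA1 and STIP1.

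The mitochondrial chaperones did not move together. HSPA9 (mortalin), the HSP70 of the matrix that also pulls imported proteins through the inner membrane (chromosome 5, 137890571 to 137911133, minus strand, hg19), was at 833, 711 and 734 CPM in the knockdown libraries and at 610, 519.5 and 582 CPM in the control libraries. It was the abundant member that rose: the groups were apart, the log2 fold change was 0.41, SE 0.0880 (edgeR adjusted p = 0.00331), and each of the 6 fits that left out 1 library kept the call, between 0.34 and 0.46. HSPE1, the lid of the chaperonin, was at 86.0, 88.3 and 96.5 CPM in the knockdown libraries and at 111, 120 and 125 CPM in the controls. It fell by 0.40 on the log2 scale (SE 0.0799, edgeR adjusted p = 0.00201), in each of those 6 fits too. HSPD1, the chaperonin itself, was at 1312, 1105 and 1140 CPM in the knockdown libraries and at 1283, 1344 and 1227 CPM in the controls, overlapping values with a log2 fold change of -0.12 (edgeR adjusted p = 0.481). TRAP1, the HSP90 of mitochondria, was at 151, 128 and 122 CPM in the knockdown libraries and at 129, 107 and 132 CPM in the controls, also overlapping (log2 fold change 0.13, edgeR adjusted p = 0.448).

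HSPE1 and HSPD1 are transcribed head to head from a shared promoter, with annotated starts 105 bases apart in RefSeq. The ratio of HSPE1 to HSPD1 in CPM was 0.0656, 0.0799 and 0.0847 in the knockdown libraries and 0.0865, 0.0895 and 0.102 in the control libraries, without overlap but with a narrow gap between knockdown replicate 3 and control replicate 1 (exact two-sided permutation test, p = 0.1, the smallest possible). The genes overlap on opposite strands in the deposited coordinates, and HSPE1 also overlaps HSPE1-MOB4 (22 reads) on its own strand. When either strand is allowed, 14.7% of the 150-base windows of HSPE1 occur in transcripts of 2 other genes. Those found in HSPD1 transcripts are 9.24%. Whether counting used the strand is not given in the sources used here. The part of such reads in this ratio was not tested. HSP90AA1 and DNAJB1 likewise overlap WDR20 and TECR on the opposite strand, with 1.04% and 0 of their own transcript windows shared.

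**Figure D4:**
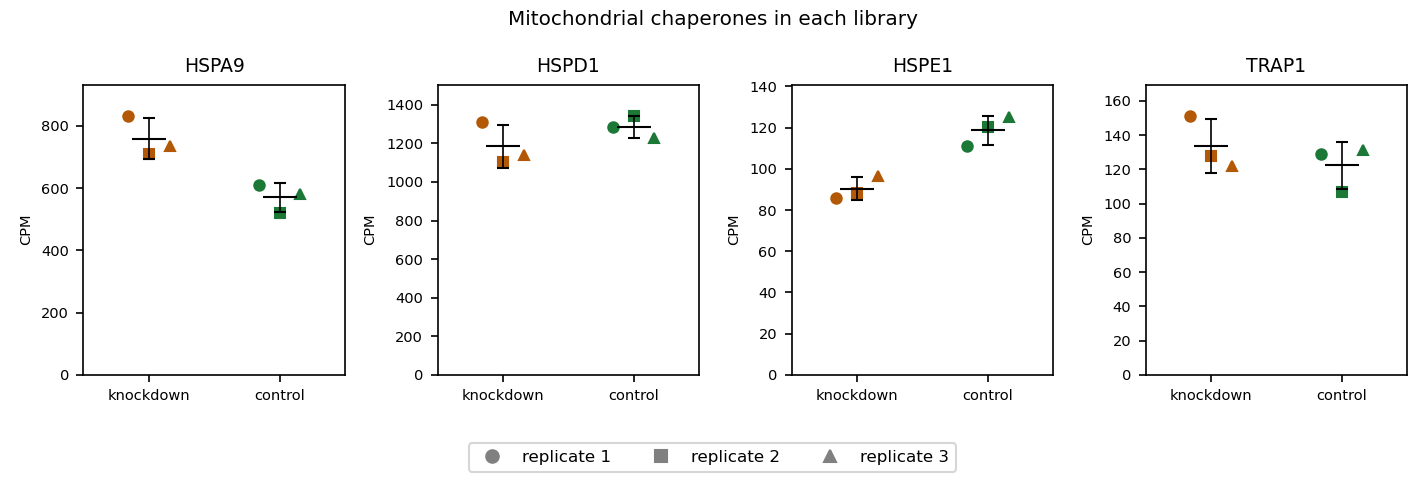
Level in CPM of 4 mitochondrial chaperones in each library, knockdown left and control right of each panel, with symbols for replicates 1 to 3 and bars for the mean and SD (n = 3). HSPA9 is higher and HSPE1 lower in all 3 knockdown libraries, while HSPD1 and TRAP1 overlap.

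Control replicate 2 stood apart in these genes. It was the highest of the 3 controls in 25 of the 40 tested members, where the same held for 32.3% of all genes tested. Its level relative to the mean of the other controls was 1.78-fold for HSPA1A, 1.68-fold for HSPA1B, 1.66-fold for HSPA6 and HSPA4L, 1.51-fold for CHORDC1, 1.504-fold for HSPB8, 1.45-fold for HSPH1, 1.42-fold for BAG3 and 1.40-fold for DNAJA1. For HSPB1, PTGES3 and HSPE1, which were called lower, it was 1.08-fold, 1.02-fold and 1.02-fold. The genes that were high in this library therefore included both called and uncalled members. Its depth of 15470321 counts was the highest of the controls. So was its share of mitochondrially encoded reads, 4.41%, against 3.87% in control replicate 1 and 4.00% in control replicate 3. That share lay between those of knockdown replicates 2 (4.65%) and 3 (4.37%). The part of these measures in the chaperone levels was not tested. Without it, 9 members were lower and 1 higher, where 3.37% of the 12451 genes tested then were lower and 3.48% higher. Of the 11 lower members 8 kept their call, HSPH1, STIP1 and FKBP4 lost it, and HSPA1A gained it; among the higher ones HSPB6 lost it. A setting added after the data were seen left out control replicate 2 and knockdown replicate 1 together. There 9 members were lower, against 2.90% of the genes tested. HSF1, HSPA1A and HSPA1B were among them, while BAG3 (edgeR adjusted p = 0.0678), DNAJB5 (0.131), HSPH1, STIP1 and FKBP4 were not called.

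The promoters of the members are shown for the binding motif of HSF1. In RefSeq (GRCh38.p14), 36 of the 42 members matched an entry, and a single annotated start was used for each gene. The 250 bases before that start were searched on both strands. The motif was GAA and TTC, in either order, with any 2 bases between them (a 2-unit motif). A run of 3 such alternating units, which contains the shorter motif, was searched for as well. A 2-unit motif was found in 11 of 36 members (30.6%), against 8.72% of 9961 promoters of tested genes, and a 3-unit motif in 4 of 36 (11.1%), against 0.301%. Among the members called lower, 2 of 10 had a 2-unit motif (20%, HSPA6 and HSPB1), and among those not called, 8 of 22 did (36.4%), counts that were given no test. A match is only a description of these letters. Units with altered letters, positions outside the 250 bases and other starts of a gene were not searched. A member without a match may therefore still have a binding site of HSF1. Whether the start used is the main start of the gene was not tested. This holds also for HSP90AA1 and DNAJB1, which were counted among the members called lower without a match. The sequences below, of the gene's strand and 5′ to 3′, end at the base before the annotated start, and capitals mark the GAA and TTC letters of each match.
The first is that of HSPB1 (chr7:76302423-76302672, plus strand), the member with the smallest adjusted p, whose match begins 182 bases before the start:
HSPB1: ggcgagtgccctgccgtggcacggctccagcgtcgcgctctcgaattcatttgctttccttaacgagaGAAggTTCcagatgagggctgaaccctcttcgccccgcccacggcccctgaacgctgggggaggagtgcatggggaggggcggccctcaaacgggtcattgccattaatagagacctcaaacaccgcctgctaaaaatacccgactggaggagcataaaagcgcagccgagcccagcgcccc
The HSPE1 promoter (chr2:197500129-197500378, plus strand), shown because HSPD1 starts within it in the opposite direction, held no match:
HSPE1: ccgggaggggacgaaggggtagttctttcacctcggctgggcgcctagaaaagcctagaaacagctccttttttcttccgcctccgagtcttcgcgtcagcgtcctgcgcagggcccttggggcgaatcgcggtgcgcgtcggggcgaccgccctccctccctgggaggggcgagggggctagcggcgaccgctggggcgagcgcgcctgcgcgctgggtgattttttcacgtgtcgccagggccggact
The last 150 bases before the start are given for HSPA1A (chr6:31815393-31815542, plus strand) and HSPA1B (chr6:31827588-31827737, plus strand), whose single matches begin 106 and 105 bases before it and which show how alike the copies are. They are also given for the 3-unit matches of HSPA6 (chr1:161524390-161524539, plus strand), HSPA8 (chr11:123062137-123062286, minus strand) and CHORDC1 (chr11:90223050-90223199, minus strand), chosen after their values were seen:
HSPA1A: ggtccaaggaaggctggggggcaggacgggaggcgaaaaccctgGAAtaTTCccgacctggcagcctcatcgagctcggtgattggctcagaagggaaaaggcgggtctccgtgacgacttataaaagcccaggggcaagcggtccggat
HSPA1B: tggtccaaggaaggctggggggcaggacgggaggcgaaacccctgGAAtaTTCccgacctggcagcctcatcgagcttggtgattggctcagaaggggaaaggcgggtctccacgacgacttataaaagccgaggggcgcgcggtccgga
HSPA6: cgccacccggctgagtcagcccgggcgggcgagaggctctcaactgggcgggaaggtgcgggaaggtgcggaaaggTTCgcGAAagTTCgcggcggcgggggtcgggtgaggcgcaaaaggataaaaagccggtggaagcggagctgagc
HSPA8: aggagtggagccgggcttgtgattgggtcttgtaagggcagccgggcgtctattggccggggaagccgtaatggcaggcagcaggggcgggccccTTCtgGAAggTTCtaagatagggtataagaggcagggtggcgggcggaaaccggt
CHORDC1: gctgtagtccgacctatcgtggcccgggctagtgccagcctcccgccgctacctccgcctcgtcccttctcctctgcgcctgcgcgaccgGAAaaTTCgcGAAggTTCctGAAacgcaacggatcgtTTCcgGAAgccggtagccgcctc
HSPA6 fell, while HSPA8 and CHORDC1, with 2 and 3 of the 3-unit matches in the 250 bases, did not pass the test. Nor did DNAJB6, the fourth member with a 3-unit match, whose sequence is not shown. The 3 matches of CHORDC1 overlap one another within a single unbroken run of units.

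Further chaperone genes were counted over lists that hold none of the members, beside 4.12% lower and 3.96% higher over all genes tested. Over those 12305 genes, 2730 had an unadjusted p under 0.05 in edgeR. Of 16 genes of the chaperonin TRiC, which folds actin and tubulin, and of its partner prefoldin, 0 passed in edgeR (1 at an unadjusted p under 0.05), with a median log2 fold change of -0.02. Of 19 tested further DNAJ genes of the cytosol and nucleus, 0 passed in edgeR (1 at an unadjusted p under 0.05). Of 24 further HSP90 and HSP70 co-chaperones, 0 rose and 2 fell. These were TOMM34, which escorts precursors to mitochondria (155 ± 14.7 CPM in the knockdown and 192.5 ± 19.3 CPM in the controls, edgeR adjusted p = 0.0272), and HSBP1, which binds HSF1 (71.6 ± 5.004 CPM in the knockdown and 86.5 ± 6.99 CPM in the controls, SD, n = 3 each, edgeR adjusted p = 0.0465). The TOMM34 call was lost when either control replicate 1 (0.1003) or 3 (0.0818) was left out, as it was when either of knockdown replicates 2 (0.106) and 3 (0.171) was. That of HSBP1 was lost when any library but control replicate 1 was left out, at adjusted p from 0.0761 to 0.177.

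Of 14 tested partners of the mitochondrial chaperones, 2 rose and 0 fell, and 6 had higher values in every knockdown library than in any control (13.3% of all genes tested). TIMM44, which anchors HSPA9 at the import channel, was at 62.8 ± 7.61 CPM in the knockdown and 46.7 ± 3.58 CPM in the controls (SD, n = 3 each; log2 fold change 0.43, edgeR adjusted p = 0.00521), and was not called without control replicate 2 and knockdown replicate 1 together (0.118). The matrix protease LONP1 was at 200.2 ± 22.95 CPM in the knockdown and 161 ± 8.62 CPM in the controls (log2 fold change 0.31, edgeR adjusted p = 0.0212), a call lost without control replicate 2 (0.0752) or knockdown replicate 1 (0.128).

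Among 16 tested genes known to be raised by heat or HSF1 that are not chaperones of the list, 1 fell and 1 rose, close to the shares over all genes. In 4 of the 16 the groups did not overlap with the knockdown lower (13.3% of all genes tested). An unadjusted edgeR p under 0.05 was found in 5 (2730 of all 12305 genes tested). JMJD6, a hydroxylase, was at 62.4 ± 4.13 CPM in the knockdown and 82.1 ± 3.88 CPM in the controls (SD, n = 3 each; log2 fold change -0.395, edgeR adjusted p = 0.00288). PPP1R15A, the stress-induced phosphatase subunit that reverses eIF2alpha phosphorylation, was at 137 ± 25.9 CPM in the knockdown and 103 ± 4.41 CPM in the controls (log2 fold change 0.42, edgeR adjusted p = 0.0125), a call lost without control replicate 2 (0.0555) or knockdown replicate 1 (0.0733). Over these 16 genes the median was -0.01 on the log2 fold change scale. The list shares TCP1 with the list of TRiC and prefoldin, and CACYBP with that of further co-chaperones. Of the 4 tested among the remaining heat shock factors and small or HSP70-like heat shock proteins, 0 passed in edgeR (1 at an unadjusted p under 0.05).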

How the data were processed

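Poly(A)-enriched RNA of 6 libraries was sequenced as strand-specific paired 150-cycle reads, per the labels' protocols. The authors deposited raw read counts per gene, per the file headers. Tools named in the submitters' processing notes are STAR 2.7.9a, fastp 0.20.0, DESeq2 and featureCounts 2.0, with the build hg19. Their settings, the annotation release and the strand setting are not given in the labels. The table's 6 columns of normalised counts were not used, and 2 lines held no values. Levels are CPM of the TMM-scaled library size. Genes passing filterByExpr (12305) entered edgeR 4.0.16 under R 4.3.3 (glmQLFit with robust dispersion, glmQLFTest, group as the only term), with Benjamini-Hochberg adjustment over all of them and calls at an adjusted p under 0.05. Each SE is the size of the log2 fold change divided by the root of its F. Alternatives were other scalings and filters, DESeq2 1.42.0, limma-voom (limma 3.58.1), dispersion that is not robust, a replicate block, and each library left out. The code was tested on simulated counts. All pairs of libraries within a group differed by more than sampling noise. The chi-square per degree of freedom was 3.06 for knockdown replicates 2 and 3, and 10.25 to 11.02 for every other pair. The named genes are ALKBH3, all members, and up to 3 called genes of each of 10 other lists with the smallest adjusted p. Members and lists were chosen with earlier results of these data known. Promoter sequences are RefSeq's (GRCh38.p14); the genes' own coordinates are those of the deposited table (hg19).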

Additional observations from a re-analysis of the deposited data

How the results depend on the processing

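With 1 library left out, the lower members numbered 6 to 15 and the higher ones 1 throughout, and over all genes 285 to 423 were lower and 312 to 433 higher. Under the other settings with all libraries the lower members numbered 11 to 14, and DESeq2 called 1 higher member, as did the fit without control replicate 2 and knockdown replicate 1. HSPB1, HSP90AA1, DNAJB1, HSPE1, PTGES3 and HSPA9 kept their call under every setting run. The ALKBH3 log2 fold change kept its direction and call in all of them. The fit with the replicate block, which the data did not bear out as a pairing (correlations of same-numbered deviations 0.058, 0.107 and -0.056), called 14 members lower (HSPA4L among them, adjusted p = 0.00277) and 2 higher, and 647 lower and 587 higher over all genes. Directions that turned belonged to members that were not called. With library totals as the only scaling HSF2 was at 0.003 and BAG2 at 0.019. Without control replicate 2 and knockdown replicate 1 together TRAP1 was at -0.061, DNAJA2 at -0.008, DNAJB2 at 0.032, BAG1 at -0.058, BAG2 at 0.037, CHORDC1 at 0.219 and CDC37 at -0.003. With 1 library left out the log2 fold changes ran from -0.058 to 0.011 for HSF2, -0.171 to 0.006 for HSPA14, -0.132 to 0.648 for CRYAB, -0.073 to 0.211 for DNAJA1, -0.018 to 0.056 for DNAJA2, -0.221 to 0.028 for DNAJB2, -0.091 to 0.048 for BAG2, -0.206 to 0.053 for BAG4, -0.076 to 0.045 for BAG5, -0.182 to 0.166 for CHORDC1 and -0.034 to 0.095 for CDC37. The cause was not tested. Low counts limit CRYAB (83 reads in all libraries) and HSPB6 (145) most among the tested members.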

Other observations

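Chaperones of the endoplasmic reticulum were read with the same fit. Of 18 tested, 4 fell (4.12% of all genes tested) and 0 rose, with a median log2 fold change of -0.19. In 8 of them every knockdown library was lower than any control (13.3% of all genes tested). HSPA5, the HSP70 of that compartment, was at 1552.5, 1513 and 1499 CPM in the knockdown libraries and at 1814.5, 2279 and 1807 CPM in the control libraries (edgeR adjusted p = 0.0143). Control replicate 2 was the highest, as with HSPA1A, HSPA1B, HSPA6 and HSPH1 but not with HSPB1 or DNAJB5. Without this library the HSPA5 call was lost (0.0887). The disulphide isomerase PDIA4 was at 758 ± 13.1 CPM in the knockdown and 926 ± 65.2 CPM in the controls (edgeR adjusted p = 0.0307), a call also lost without control replicate 2 (0.111). The cochaperone SDF2L1 and the secreted factor MANF, which was named after its value was seen, had log2 fold changes of -0.45 and -0.395 (edgeR adjusted p = 0.0406 and 0.0472) and lost their calls without control replicate 2 (0.0954 and 0.137).

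Of 31 proteasome subunits, 3 fell (4.12% of all genes tested) and 0 rose. The log2 fold change was below 0 in 24 (5955 of all 12305 genes tested). In 10 every knockdown library was lower than any control (13.3% of all genes tested). An unadjusted edgeR p under 0.05 was found in 8 (2730 of all 12305 genes tested). The regulatory subunit PSMD3 was at 127, 143 and 137 CPM in the knockdown libraries and at 167, 169 and 183 CPM in the control libraries, without overlap and with control replicate 3 the highest (log2 fold change -0.35, edgeR adjusted p = 0.00490). PSMD1 and the core subunit PSMB3 had log2 fold changes of -0.27 and -0.26 (edgeR adjusted p = 0.0315 and 0.0405). In contrast to the endoplasmic reticulum genes, all 3 calls held without control replicate 2 (0.00804, 0.0267 and 0.0283), and those of PSMD1 and PSMB3 were lost without other single libraries and when scaled by library totals alone (0.0536 and 0.0677).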
